A study of Mus musculus with 14 samples.

Results

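The matrix metalloproteinases (MMPs), the ADAMTS proteases, the ADAMTS-like proteins and the tissue inhibitors of metalloproteinases (TIMPs) were examined in mouse cells and livers that had lost *Terf2*, the gene of the shelterin protein TRF2. Members were taken by gene symbol alone, though they were chosen with earlier results of these data known. They were the 51 genes, of 54532 in the count tables, named *Mmp*, *Adamts* or *Adamtsl* with a number, or *Timp1* to *Timp4*. There were 23 MMP genes, 19 *Adamts* genes, 5 *Adamtsl* genes and 4 *Timp* genes, and all 51 were joined between both tables by Ensembl ID.

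RNA-seq was carried out on 14 libraries in 4 groups. Senescent iMEFs (n = 3) and control iMEFs (n = 3) were fibroblasts of mouse embryos that SV40 large T antigen had immortalized, and all carried the genotype Trf2F/F;Rosa-CreER. Senescent iMEFs received 4-hydroxytamoxifen, which activates the Cre recombinase, and were collected on day 7. Control iMEFs received vehicle. Senescent livers (n = 4) came from Trf2F/F;Rosa-mTmG mice and control livers (n = 4) from Rosa-mTmG mice, and every mouse received AAV8-Tbg-Cre, with senescent livers taken at 6 weeks by their labels and 6 to 7 weeks by the study's methods. The sources used here do not give the age of the mice. The TBG promoter drives Cre in hepatocytes, so that other liver cells keep *Trf2*, and RNA came from whole liver. No iMEF library combined 4-hydroxytamoxifen with intact *Trf2*, so effects of the compound or of active Cre cannot be told apart from those of *Trf2* loss. The series describes the samples of a group as biologic replicates, and the p-values measure the spread between them. The study calls the iMEFs a cell line, and the sources used here do not say whether their replicates came from different embryos. Spread between embryos may thus not be part of the iMEF p-values.

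MMPs are zinc endopeptidases that cleave collagens, proteoglycans and other matrix proteins, as well as cytokines and growth factors. Most are secreted as inactive proenzymes, and some are anchored at the cell surface. ADAMTS proteases are secreted enzymes with thrombospondin repeats, several of which cleave large proteoglycans such as versican and aggrecan or trim procollagens, while ADAMTS-like proteins share the ancillary domains and lack the protease domain. TIMPs bind and block the active enzymes. Secreted MMPs, above all stromelysins and collagenases, are among the best known products of senescent fibroblasts, and in liver these enzymes are studied mostly in the turnover of scar matrix by stellate cells and macrophages.

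In senescent iMEFs members moved in both directions. Of the 35 members tested, *Mmp3*, *Mmp10*, *Mmp13* and *Mmp15* rose and 21 fell at an adjusted p of 0.05 in edgeR's quasi-likelihood test, and 10 were not called. Of all 13561 genes tested, 18.6% were called higher and 21.2% lower. Every member that rose was an MMP, but of 14 tested MMP genes 7 fell and 4 rose. Of the tested *Adamtsl* and *Timp* genes, 2 of 4 and 2 of 3 fell and 0 rose. Of 14 tested *Adamts* genes, 10 fell and 0 rose, and the largest of these falls were those of *Adamts16*, *Adamts17*, *Adamts5* and *Adamts2*. In livers 0 of 27 tested members passed the same test, which called 0.343% of all 14270 genes tested there.

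Of the 4 members that rose, *Mmp3*, *Mmp10* and *Mmp13* are neighbours on chromosome 9. In GRCm38 this stretch, chr9:7272514-7699585, holds 10 members in the order *Mmp13*, *Mmp12*, *Mmp1b*, *Mmp3*, *Mmp1a*, *Mmp10*, *Mmp8*, *Mmp27*, *Mmp20* and *Mmp7*. These were the only 3 genes of the stretch with enough reads to be tested in iMEFs. The other 7 had 0 to 3 reads per group. Promoter sequences from RefSeq (GRCm38.p6, 300 bases, with 250 before the annotated start and 50 from it onwards) were matched by symbol for 36 of the 51 members. The binding motif of AP-1, a factor long known to act on stromelysin and collagenase promoters, was searched for as TGAGTCA or TGACTCA, which are each other's reverse complement and so cover both strands. The motif was present in 3 of the 4 promoters of members that rose, in 0 of 14 promoters of members that fell and in 0 of 6 promoters of tested members that were not called, against 5.20% of all 32851 promoters in the table. It was also present in 4 of 15 promoters of members that were not tested, those of *Mmp1a*, *Mmp1b*, *Mmp7* and *Mmp12*, which lie in the same stretch of chromosome 9. All 7 matching promoters, of 39 searched for members, thus lay in this stretch. Not every promoter there matched: the other listed promoter of *Mmp7*, that of *Mmp12* and the promoters of *Mmp8*, *Mmp20* and *Mmp27* had no match. *Adamts4*, *Adamts5*, *Adamts16*, *Adamtsl1*, *Mmp2*, *Mmp9*, *Mmp16* and *Mmp19* fell but had no promoter to search. *Mmp23*, which fell, and *Mmp7* and *Mmp12*, which were not tested, were each counted with all of their listed promoters. Whether the motif had a part in the rises was not tested. A match shows only that these letters are present. The promoters of the 3 neighbouring genes that rose are shown 5′ to 3′ with the motif in capitals, and that of *Adamts1* is shown beside them as the most abundant *Adamts* gene, which fell and has no match.

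*Mmp3*, chr9:7445572-7445871, plus strand: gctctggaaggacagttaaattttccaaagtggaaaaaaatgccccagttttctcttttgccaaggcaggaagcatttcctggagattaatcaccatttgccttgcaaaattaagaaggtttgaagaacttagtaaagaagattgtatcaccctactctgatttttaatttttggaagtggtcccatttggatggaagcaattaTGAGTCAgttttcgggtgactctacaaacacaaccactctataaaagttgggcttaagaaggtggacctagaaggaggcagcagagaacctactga
*Mmp10*, chr9:7502092-7502391, plus strand: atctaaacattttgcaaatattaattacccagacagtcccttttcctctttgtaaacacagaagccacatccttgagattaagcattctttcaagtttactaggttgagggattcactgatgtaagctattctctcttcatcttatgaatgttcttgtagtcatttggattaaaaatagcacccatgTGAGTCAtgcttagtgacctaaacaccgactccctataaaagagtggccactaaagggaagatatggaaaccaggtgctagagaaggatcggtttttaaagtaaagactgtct
*Mmp13*, chr9:7272264-7272563, plus strand: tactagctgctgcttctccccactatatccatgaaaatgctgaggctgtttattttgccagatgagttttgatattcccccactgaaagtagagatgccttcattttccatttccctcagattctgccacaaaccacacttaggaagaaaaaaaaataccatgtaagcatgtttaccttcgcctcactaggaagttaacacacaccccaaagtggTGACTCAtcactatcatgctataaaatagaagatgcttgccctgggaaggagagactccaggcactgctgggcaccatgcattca
*Adamts1*, chr16:85803064-85803363, minus strand: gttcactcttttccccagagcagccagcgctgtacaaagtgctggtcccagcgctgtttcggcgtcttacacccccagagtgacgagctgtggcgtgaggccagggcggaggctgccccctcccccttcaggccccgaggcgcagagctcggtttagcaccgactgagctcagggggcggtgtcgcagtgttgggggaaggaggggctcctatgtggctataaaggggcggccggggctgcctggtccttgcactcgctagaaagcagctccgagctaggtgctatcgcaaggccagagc

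The motif began 46 bases before the annotated start in *Mmp3*, 63 bases before it in *Mmp10* and 35 bases before it in *Mmp13*. The promoter of *Mmp15*, on chromosome 8 and outside this stretch, had no match.

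Libraries held 15364450 to 20177401 reads in genes. *Terf2* averaged 0.250 ± 0.0482 CPM (counts scaled per 1000000 reads in tested genes, after TMM normalization) in senescent and 38.3 ± 0.775 CPM in control iMEFs (SD, n = 3 each), and 3.82 ± 1.12 CPM in senescent and 12.6 ± 1.35 CPM in control livers (SD, n = 4 each). Senescent iMEF replicate 3 stood apart from the other libraries of its group. Reads of the mitochondrial genome were 2.32% of its total, against 0.853% and 0.644% in senescent replicates 1 and 2 and 0.599% to 0.736% in control iMEFs. It had the highest value of the 3 senescent libraries for 29 of the 35 members tested in iMEFs. Among the 25 called members this held for 20, 3 of the 4 that rose and 17 of the 21 that fell. The same was not counted over all genes. Without senescent replicate 3 the counts of members were 4 higher and 24 lower. Over all genes, 2790 were called higher and 3117 lower of 13823 tested without it. With it these were 2522 and 2878 of 13561. The fibroblast markers *Col1a1*, *Col1a2*, *Pdgfra*, *Pdgfrb*, *Thy1*, *Vim*, *Fn1* and *Dcn* summed to 8895 to 11059 CPM in senescent and 18860 to 20605 CPM in control iMEFs, with 6 of 8 called lower, 1 called higher and none at 0. Of 7 hepatocyte markers, 6 had 0 reads in all iMEF libraries, *Alb* and *Ttr* among them. Of 10 macrophage markers 7 were at 0, *Adgre1* and *Clec4f* among them, and the sum was 6.27 to 8.20 CPM in senescent and 4.04 to 4.69 CPM in control iMEFs. Most of that sum was *Cd68*, the only macrophage marker tested in iMEFs. It averaged 7.03 ± 1.12 CPM in senescent and 3.95 ± 0.387 CPM in control iMEFs (SD, n = 3 each) and was called higher. Whether these shifts had a part in the changes of the members was not tested.

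In both directions together 25 of 35 tested members were called in iMEFs, against 39.8% of all tested genes. The libraries of the groups did not overlap for 25 of the 35 tested members, against 50.6% of all tested genes. The median log2 fold change, senescent over control, was -0.54 for the tested members and 0.0028 for all tested genes. By family the medians were -1.60 for 14 *Adamts* genes, -1.04 for 4 *Adamtsl* genes, -0.42 for 14 MMP genes and -0.43 for 3 *Timp* genes. Of the 16 members not tested in iMEFs, *Mmp7*, *Mmp8*, *Mmp20*, *Mmp21* and *Adamts19* had 0 reads. The others, *Mmp1a*, *Mmp1b*, *Mmp12*, *Mmp24*, *Mmp27*, *Adamts3*, *Adamts8*, *Adamts13*, *Adamts15*, *Adamtsl2* and *Timp4*, had 1 to 28 reads over the 6 libraries.

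**Figure D1:**
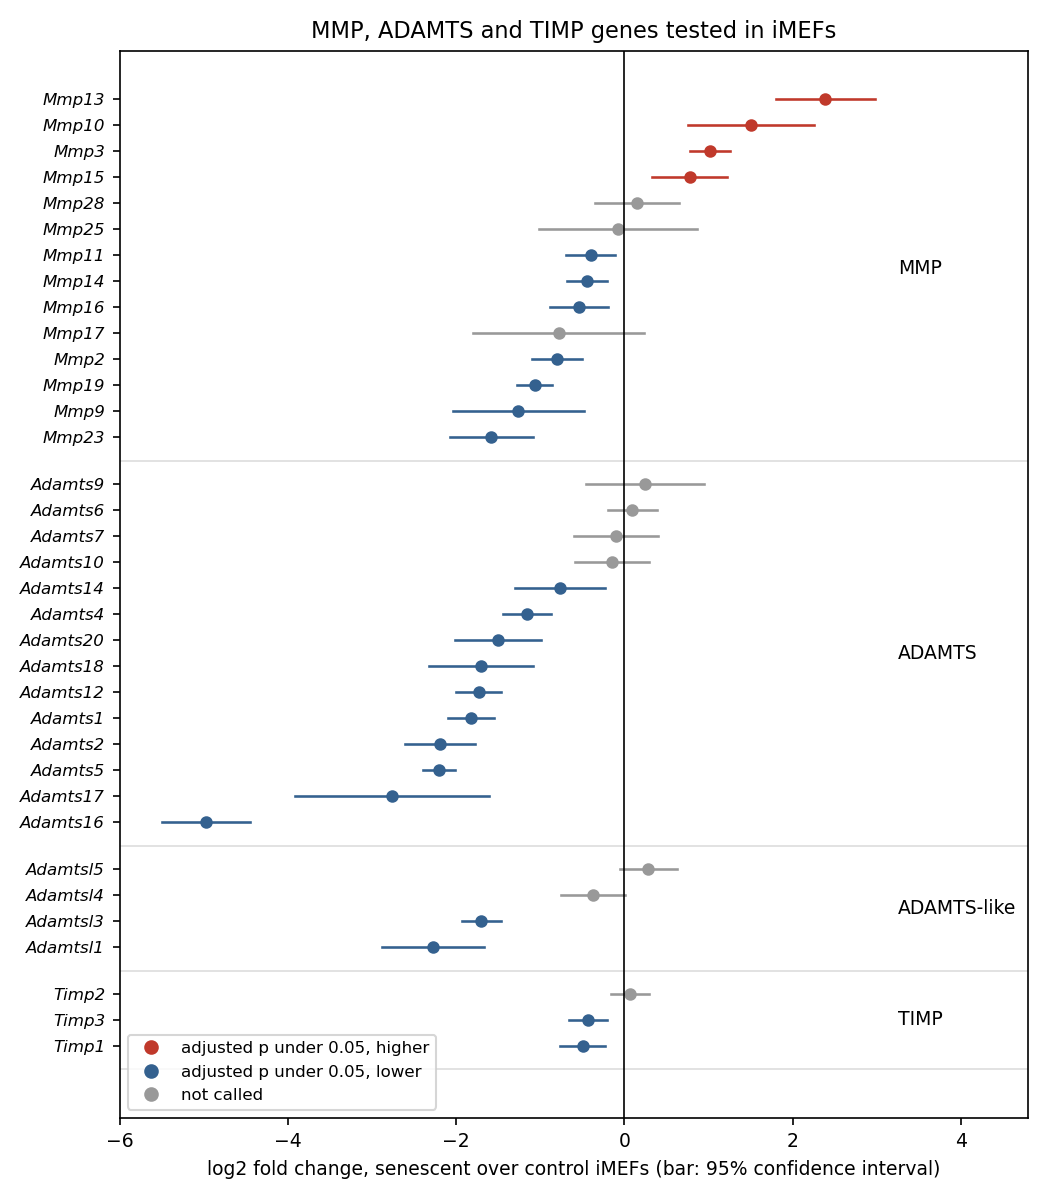
Log2 fold changes of the 35 members tested in iMEFs, senescent over control, grouped by family, with 95% confidence intervals as bars. Members called higher are red, members called lower are blue and members not called are grey. All 4 red points lie among the MMPs, and 10 of 14 *Adamts* genes lie to the left of 0 with their whole interval.

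Stromelysins and collagenases held 3 of the 4 rises. *Mmp3*, stromelysin, cleaves proteoglycans, fibronectin and laminin and activates other pro-MMPs. It had 119.7, 131 and 142 CPM in senescent iMEFs, against 54.6, 67.0 and 72.8 CPM in control iMEFs. The lowest senescent library was above the highest control library, and the log2 fold change was 1.02 ± 0.11 (SE, adjusted p = 1.54e-05 from edgeR's test). *Mmp10*, a second stromelysin with a similar protein, had 2.04, 2.62 and 1.84 CPM in senescent and 0.994, 0.858 and 0.420 CPM in control iMEFs. It was expressed far below *Mmp3*, and its log2 fold change was 1.51 ± 0.35 (SE, adjusted p = 0.00435). *Mmp13*, the main interstitial collagenase of mice, had 4.72, 5.48 and 8.37 CPM in senescent iMEFs and 1.27, 0.959 and 1.31 CPM in control iMEFs. All senescent libraries were higher, at a log2 fold change of 2.39 ± 0.27 (SE, adjusted p = 2.51e-05), the largest rise of the family. *Mmp11*, a stromelysin that furin activates inside the cell, went the other way, with 37.4, 30.8 and 48.2 CPM in senescent and 52.7, 52.9 and 48.4 CPM in control iMEFs. Senescent replicate 3 came close to the lowest control, and the log2 fold change was -0.40 ± 0.13 (SE, adjusted p = 0.0297). Leaving out control replicate 1 or 2 or senescent replicate 1 or 2, *Mmp11* was not called (adjusted p = 0.0758 to 0.107). The collagenases *Mmp1a*, *Mmp1b* and *Mmp8* had 0 to 2 reads per group.

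The membrane-anchored MMPs moved in both directions. *Mmp14*, the surface protease that activates pro-MMP2, had 500.1, 511 and 655 CPM in senescent and 779, 779 and 711 CPM in control iMEFs. It remained by far the most abundant MMP in CPM in both groups, and fell by 0.45 ± 0.11 on the log2 scale (SE, adjusted p = 0.00677). *Mmp15*, its close relative, had 5.74, 7.98 and 10.4 CPM in senescent iMEFs and 4.64, 5.10 and 4.35 CPM in control iMEFs. Its senescent libraries were widely spread but all above the controls, at a log2 fold change of 0.77 ± 0.21 (SE, adjusted p = 0.0105). *Mmp16*, another transmembrane MMP, had 6.01, 5.97 and 7.74 CPM in senescent and 11.0, 8.53 and 9.29 CPM in control iMEFs, without overlap and with a log2 fold change of -0.54 ± 0.16 (SE, adjusted p = 0.0168). Its call was lost without control replicate 1 or senescent replicate 1 (adjusted p = 0.0823 and 0.0618). The glycolipid-anchored *Mmp17* and *Mmp25* were not called, at means of 0.659 and 0.645 CPM in senescent iMEFs, against 1.13 and 0.683 CPM in control iMEFs.

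Both gelatinases fell. *Mmp2*, which cleaves denatured collagen and basement membrane collagen, had 41.7, 41.5 and 62.3 CPM in senescent and 88.5, 83.6 and 81.6 CPM in control iMEFs. Every senescent library lay below every control library, at a log2 fold change of -0.80 ± 0.14 (SE, adjusted p = 0.000616). *Mmp9* was scarce, with 0.644, 0.670 and 0.631 CPM in senescent iMEFs and 1.88, 1.82 and 0.997 CPM in control iMEFs. These were 34 reads in senescent and 89 reads in control iMEFs, with a log2 fold change of -1.26 ± 0.36 (SE, adjusted p = 0.0143), and the call was lost without control replicate 1 or 2 (adjusted p = 0.0685 for both). Of the remaining MMPs, *Mmp19*, which cleaves basement membrane proteins, had 16.7, 18.4 and 16.4 CPM in senescent and 36.8, 35.3 and 35.9 CPM in control iMEFs. The libraries of each group were close together, and the log2 fold change was -1.07 ± 0.10 (SE, adjusted p = 3.48e-06). *Mmp23*, an MMP without the hemopexin domain, had 1.72, 1.89 and 2.87 CPM in senescent iMEFs and 7.51, 6.46 and 5.46 CPM in control iMEFs, also without overlap, and fell by 1.58 ± 0.23 on the log2 scale (SE, adjusted p = 0.000164). *Mmp28*, the last MMP tested, was not called and averaged 3.97 ± 0.480 CPM in senescent and 3.58 ± 0.986 CPM in control iMEFs (SD, n = 3 each).

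Of 7 proteoglycan-cleaving ADAMTS enzymes, 5 were tested and 4 fell, among them *Adamts1* and *Adamts5*, which lost the most in CPM. *Adamts1*, which cleaves versican, had 84.6, 86.9 and 123 CPM in senescent iMEFs and 344, 336 and 364 CPM in control iMEFs. The gap between the groups was far wider than the spread within them, with a log2 fold change of -1.83 ± 0.13 (SE, adjusted p = 4.13e-07 from edgeR's test). *Adamts5*, the main aggrecanase of mouse cartilage, had 45.9, 46.7 and 54.8 CPM in senescent and 220.0, 224 and 234 CPM in control iMEFs. Its log2 fold change was -2.20 ± 0.09 (SE, adjusted p = 5.28e-09), and the groups were again far apart. Both genes lie side by side on chromosome 16, with *Adamts1* at chr16:85793827-85803113 and *Adamts5* at chr16:85856173-85901828 in GRCm38. *Adamts4*, the other aggrecanase, had 7.35, 7.07 and 9.46 CPM in senescent iMEFs and 17.9, 17.9 and 17.6 CPM in control iMEFs. It fell by 1.16 ± 0.13 on the log2 scale (SE, adjusted p = 2.93e-05). *Adamts20*, a versican-cleaving enzyme known in mice from the coat colour mutant belted, had 1.56, 1.28 and 2.35 CPM in senescent and 4.75, 5.05 and 4.93 CPM in control iMEFs, and fell by 1.50 ± 0.24 (SE, adjusted p = 0.00033). *Adamts9*, also a versicanase, was not called, at 1.61 ± 0.569 CPM in senescent and 1.35 ± 0.208 CPM in control iMEFs (SD, n = 3 each).

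The procollagen N-proteinases, which remove the amino-terminal propeptide of fibrillar procollagens, fell as well. *Adamts2* had 2.90, 1.77 and 2.29 CPM in senescent iMEFs, against 9.83, 10.3 and 11.9 CPM in control iMEFs. The log2 fold change was -2.19 ± 0.19 (SE, adjusted p = 2.6e-06), and no libraries overlapped. *Adamts14* had 3.27, 2.56 and 5.79 CPM in senescent and 6.46, 7.22 and 6.14 CPM in control iMEFs. Senescent replicate 3 almost reached the controls, the log2 fold change was -0.77 ± 0.25 (SE, adjusted p = 0.0268), and the call was lost without control replicate 1, 2 or 3 or senescent replicate 1 or 2 (adjusted p = 0.0504 to 0.0897). The third of these enzymes, *Adamts3*, had 3 reads in senescent and 5 reads in control iMEFs and was not tested. Of the pair that cleaves cartilage oligomeric matrix protein, *Adamts12* had 6.92, 5.85 and 7.11 CPM in senescent iMEFs and 23.1, 21.4 and 21.8 CPM in control iMEFs, a log2 fold change of -1.74 ± 0.12 (SE, adjusted p = 4.69e-07). Its relative *Adamts7* was not called, and senescent replicate 3 at 11.4 CPM stood apart from senescent replicates 1 and 2 at 5.80 and 5.85 CPM.

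The strongest fall of any member was that of *Adamts16*, a secreted protease of the kidney and gonad. It had 0.322, 0.366 and 0.401 CPM in senescent and 13.2, 11.9 and 9.76 CPM in control iMEFs, or 19 reads in senescent and 660 reads in control iMEFs. Almost no reads of the gene were left, at a log2 fold change of -4.98 ± 0.24 (SE, adjusted p = 2.14e-08). *Adamts18*, its nearest relative in sequence, had 0.805, 0.670 and 1.20 CPM in senescent iMEFs and 3.20, 2.72 and 2.89 CPM in control iMEFs, and fell by 1.71 ± 0.28 (SE, adjusted p = 0.000515). *Adamts17*, whose human counterpart is mutated in a syndrome of short stature and lens dislocation, had 0.0537, 0.244 and 0.115 CPM in senescent and 1.05, 1.06 and 0.734 CPM in control iMEFs. With 7 reads in senescent and 54 reads in control iMEFs its fold change was the least precise of those called, -2.76 ± 0.53 (SE, adjusted p = 0.00141). *Adamts10* and *Adamts6*, which act on fibrillin microfibrils, were not called. *Adamts10* averaged 34.7 ± 13.7 CPM in senescent and 38.5 ± 4.33 CPM in control iMEFs (SD, n = 3 each), with 50.2 CPM in senescent replicate 3 and 29.6 and 24.3 CPM in senescent replicates 1 and 2. Without senescent replicate 3, *Adamts10* and *Adamts7* were called lower, at log2 fold changes of -0.50 and -0.48 (adjusted p = 0.00189 and 0.0208).

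Among the ADAMTS-like genes, *Adamtsl3* had 11.7, 12.2 and 14.4 CPM in senescent iMEFs and 42.1, 40.1 and 42.3 CPM in control iMEFs. It fell by 1.70 ± 0.11 on the log2 scale (SE, adjusted p = 1.74e-07). *Adamtsl1*, a matrix glycoprotein of the same group, had 0.966, 0.670 and 1.43 CPM in senescent and 6.13, 4.29 and 4.62 CPM in control iMEFs, a log2 fold change of -2.28 ± 0.28 (SE, adjusted p = 5.11e-05). Neither gene showed any overlap between the groups. *Adamtsl4* and *Adamtsl5*, which bind fibrillin, were not called. *Adamtsl5* averaged 52.1 ± 14.2 CPM in senescent and 42.8 ± 3.65 CPM in control iMEFs (SD, n = 3 each), and it was called higher without senescent replicate 2 (log2 fold change 0.44, adjusted p = 0.0275). *Adamtsl4* averaged 28.9 ± 8.53 CPM in senescent and 37.4 ± 5.32 CPM in control iMEFs, and it was called lower without senescent replicate 3 (log2 fold change -0.59, adjusted p = 0.00191) and also with all libraries and no filter on low counts (log2 fold change -0.39, adjusted p = 0.00354).

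Of the inhibitors, *Timp1*, a soluble inhibitor of most secreted MMPs, had 107, 101 and 143 CPM in senescent and 167, 179 and 149 CPM in control iMEFs. The groups came close without overlapping, and the log2 fold change was -0.50 ± 0.12 (SE, adjusted p = 0.00597). *Timp3*, which binds to the matrix and also blocks ADAMTS aggrecanases, had 125, 129.8 and 166 CPM in senescent iMEFs and 198, 182 and 188 CPM in control iMEFs, a log2 fold change of -0.43 ± 0.10 (SE, adjusted p = 0.00536). *Timp2*, which forms a complex with MMP14 in the activation of pro-MMP2, had 1177, 1189.5 and 1455 CPM in senescent and 1223, 1208 and 1213 CPM in control iMEFs. Its groups overlapped and it was not called (adjusted p = 0.626), with a log2 fold change of 0.07 and a 95% confidence interval of -0.15 to 0.29. *Timp4* had 9 reads in senescent and 15 reads in control iMEFs.

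**Figure D2:**
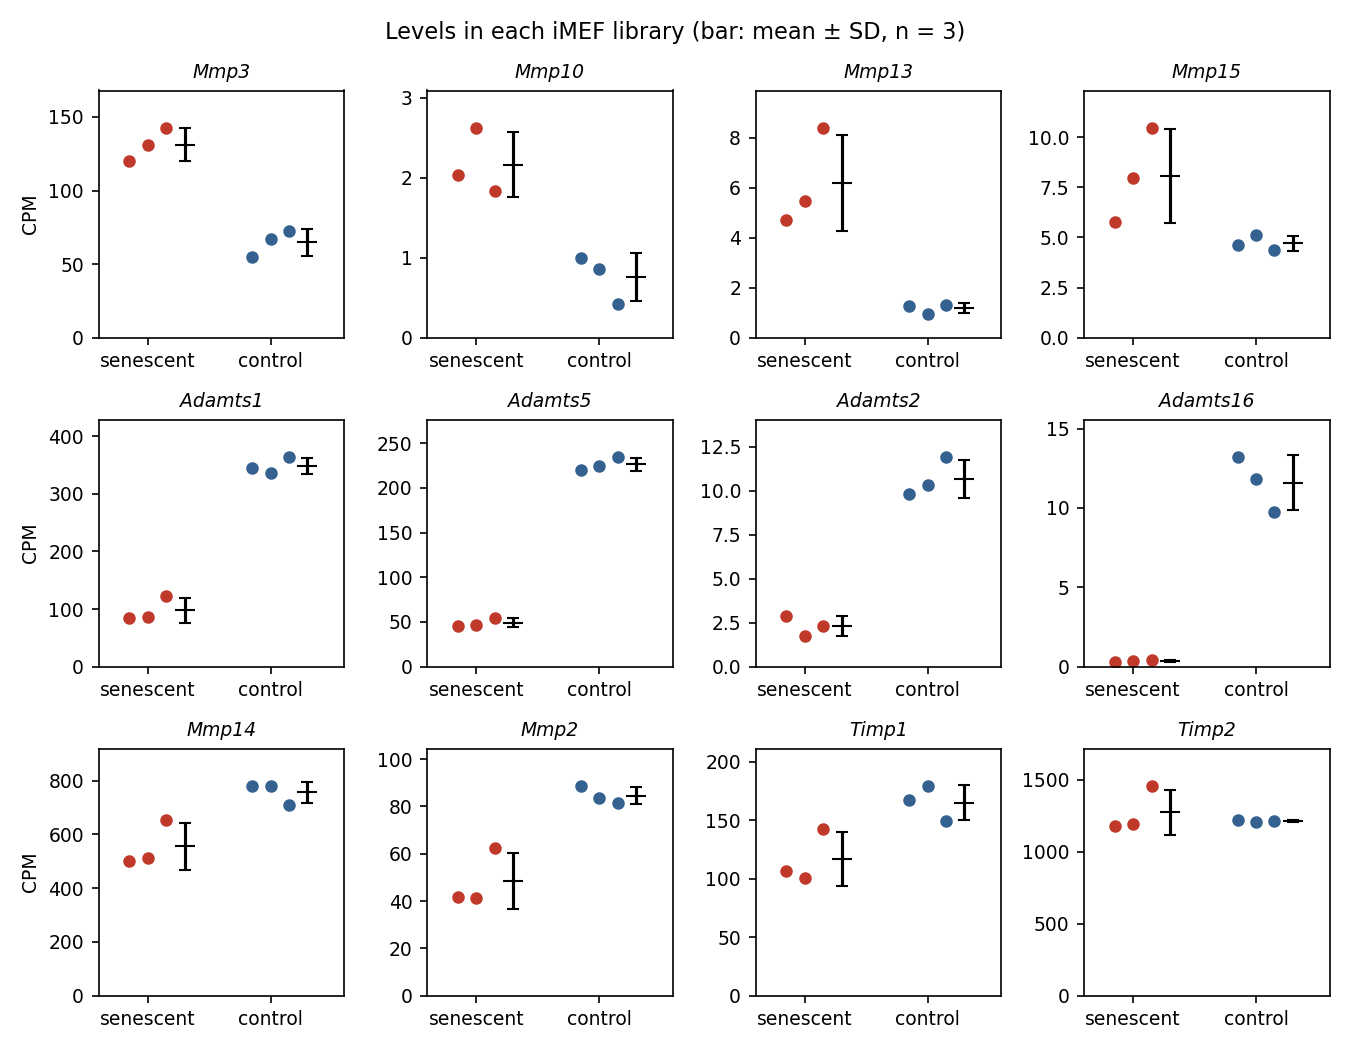
CPM of 12 members in each of the 3 senescent (red) and 3 control (blue) iMEF libraries, each panel with its own axis from 0. Black marks to the right of each group give its mean ± SD. The groups are separate in every panel but that of *Timp2*, and for *Mmp13*, *Mmp14*, *Mmp2*, *Timp1* and *Timp2* senescent replicate 3, the rightmost red point, is well above the other 2.

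Levels of different genes were compared per kilobase of exon. In senescent iMEFs the highest levels were 327 ± 40.3 CPM per kilobase for *Timp2*, 132 ± 25.6 for *Timp1*, 93.2 ± 14.5 for *Mmp14*, 72.8 ± 6.28 for *Mmp3* and 18.5 ± 4.07 for *Adamts1* (SD, n = 3 each). In control iMEFs the same quantity was 312 ± 1.98 for *Timp2*, 186 ± 16.9 for *Timp1*, 127 ± 6.62 for *Mmp14*, 36.0 ± 5.15 for *Mmp3* and 65.6 ± 2.69 for *Adamts1* (SD, n = 3 each). *Mmp3* and *Adamts1* thus held ranks 4 and 5 in senescent iMEFs and the reverse in control iMEFs. In senescent iMEFs *Adamts1* and *Timp3*, at means of 18.5 and 17.2 CPM per kilobase, differed by less than either SD. Summed over the family, the *Adamts* genes had 34.8 ± 7.85 CPM per kilobase in senescent and 106 ± 2.80 in control iMEFs, the MMPs had 207 ± 27.8 in senescent and 224 ± 5.35 in control iMEFs, and the TIMPs had 476 ± 68.4 in senescent and 521 ± 16.3 in control iMEFs (SD, n = 3 each). The sum of the *Adamts* genes is mostly *Adamts1* and *Adamts5*, that of the MMPs mostly *Mmp14* and *Mmp3*, which moved in opposite directions.

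**Figure D3:**
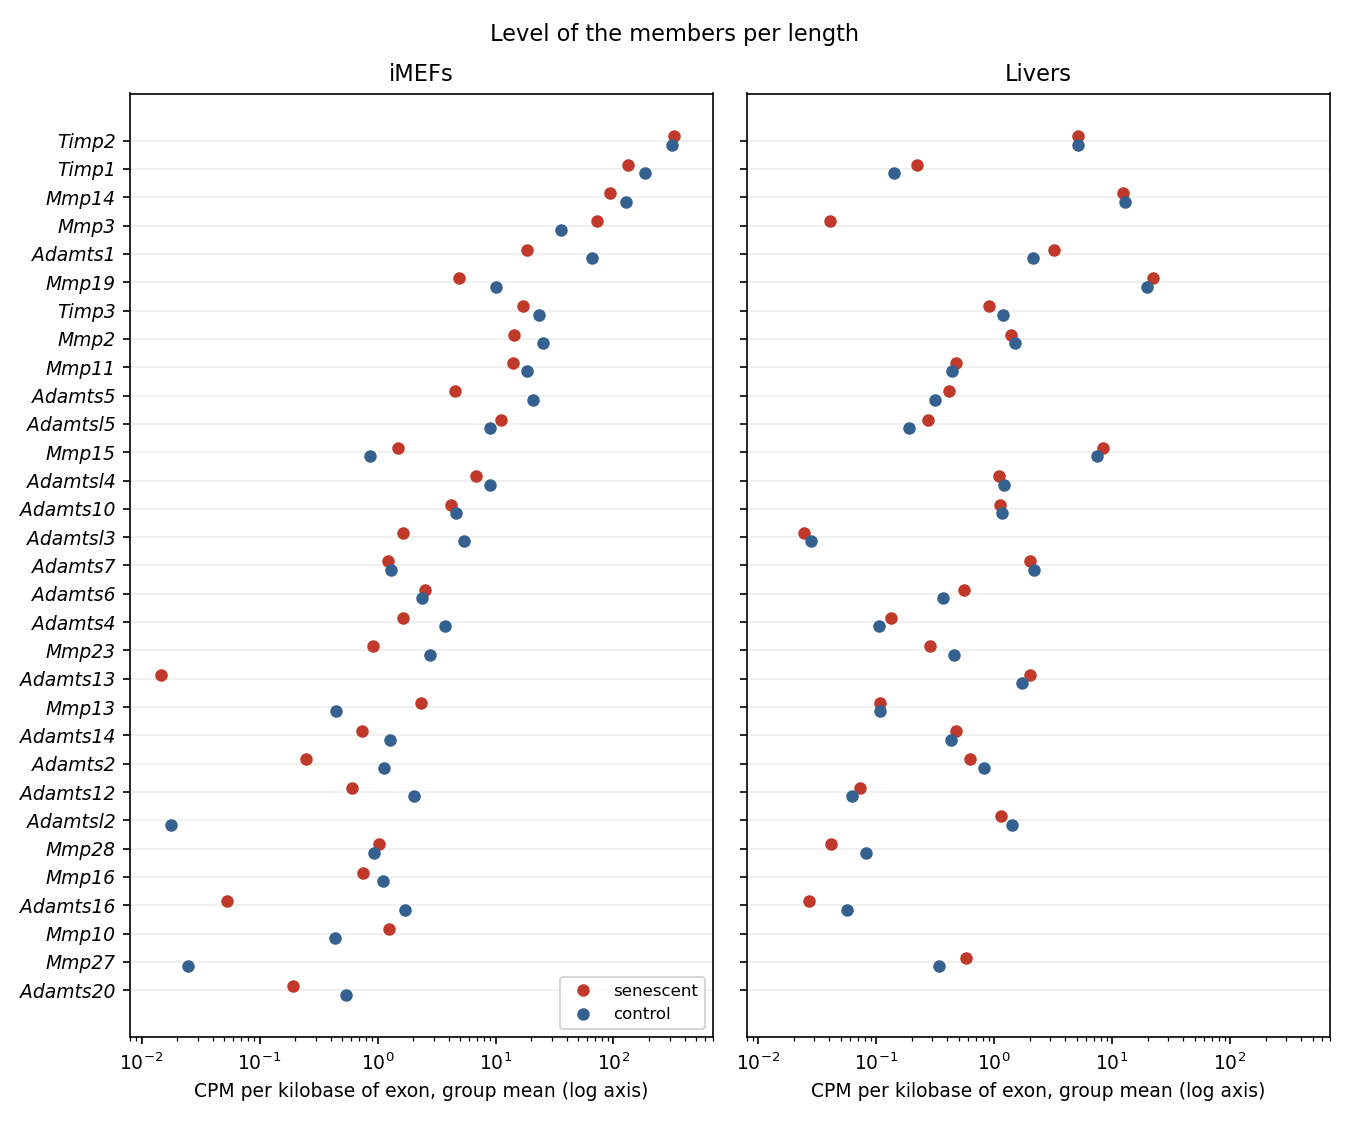
Mean CPM per kilobase of exon of the 31 members that reach 0.5 in at least 1 group, in iMEFs (left) and livers (right), on a log axis. Red points are senescent and blue points control, and means under 0.01 are not drawn. *Timp2*, *Timp1* and *Mmp14* lead in iMEFs, while *Mmp19*, *Mmp14* and *Mmp15* lead in livers, where red and blue points lie close together for the abundant members.

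Other genes of matrix proteolysis were counted from lists. Of 11 other protease inhibitors, 6 were tested in iMEFs, 3 rose and 2 fell. *Serpine2*, an inhibitor of thrombin and urokinase, rose with a log2 fold change of 2.67 ± 0.15 (SE, adjusted p = 7.88e-08). *Spock2*, a testican, rose by 0.90 on the log2 scale (adjusted p = 0.0241), a call lost on leaving out control replicate 1 or 3 or senescent replicate 1 (adjusted p = 0.0626 to 0.109). *Cst3*, cystatin C, fell by 0.50 (adjusted p = 0.00285), and *Reck*, a membrane-bound MMP inhibitor, was the second that fell. Of 5 plasminogen activation genes, the urokinase receptor *Plaur* rose (log2 fold change 1.36, adjusted p = 9.14e-06), while the activators *Plau* and *Plat* fell by 0.65 and 0.58 on the log2 scale (adjusted p = 0.00413 and 0.00243). Among 5 receptors, *Cd44*, which holds MMPs at the cell surface, averaged 898 ± 170.4 CPM in senescent and 352 ± 25.4 CPM in control iMEFs, and *Lrp1*, the endocytic receptor that clears MMPs, ADAMTS enzymes and TIMPs, averaged 356 ± 37.7 CPM in senescent and 810.3 ± 120.4 CPM in control iMEFs (SD, n = 3 each). Their log2 fold changes were 1.35 and -1.19 (adjusted p = 4.45e-06 and 9.1e-06). The proprotein convertase *Pcsk6* was the only 1 of 5 activators and inducers called (log2 fold change 0.65, adjusted p = 0.00126). Of 15 ADAM and related metalloproteases 10 were tested, and *Adam8*, an ADAM best known from leukocytes, rose (0.94, adjusted p = 0.00296), while 5 fell, among them *Adam12* (-0.62, adjusted p = 0.000214), *Adam23*, a member without protease activity (-2.11, adjusted p = 0.00191) and the procollagen C-proteinase relative *Tll1* (-0.47, adjusted p = 0.00894). Of 5 matrix-degrading cathepsins, *Ctsb* rose by 0.39 on the log2 scale (adjusted p = 0.0162), a call lost without any 1 of the control replicates (adjusted p = 0.0502 to 0.0653).

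In livers, senescent against control, 0 of 27 tested members were called by edgeR's quasi-likelihood test. Of all genes tested there, 0.308% were called higher and 0.035% lower. DESeq2 and limma-voom called 0 members as well. Of all 14270 genes, DESeq2 called 103 higher and 36 lower, and limma-voom 41 higher and 5 lower. At an unadjusted p of 0.05 there were 2, *Adamts1* and *Timp3*, and 1076 among all tested genes. The groups did not overlap for 1 tested member, against 4.51% of all tested genes. The median log2 fold change was 0.13 for the tested members and -0.0040 for all tested genes, and 17 members were above 0 and 10 below. The fold changes of the tested members lay between -0.68 and 0.77 on the log2 scale. Of the 24 members not tested, *Mmp1a*, *Mmp1b*, *Mmp10*, *Mmp20*, *Adamts18*, *Adamts19* and *Timp4* had 0 reads in all 8 libraries. The remaining 17 had 1 to 39 reads. In whole liver, fewer cells of a type and less RNA per cell cannot be told apart.

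*Adamts1* had the smallest p-value. It had 20.5, 15.5, 13.6 and 18.4 CPM in senescent and 9.48, 13.1, 11.7 and 11.2 CPM in control livers. Every senescent library lay above every control library, by little between the closest pair. Its log2 fold change was 0.58 ± 0.15 (SE, unadjusted p = 0.00235 and adjusted p = 0.25 from edgeR's test). *Timp3* had 6.07, 8.13, 7.01 and 8.59 CPM in senescent livers and 10.1, 11.4, 7.42 and 9.93 CPM in control livers. Control replicate 3 fell within the senescent range, and the log2 fold change was -0.38 ± 0.17 (SE, unadjusted p = 0.0467 and adjusted p = 0.652).

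*Mmp19*, *Mmp14* and *Mmp15* were the most abundant members in livers. Per kilobase of exon, *Mmp19* had 22.3 ± 2.72 CPM in senescent and 19.7 ± 1.43 in control livers, *Mmp14* had 12.3 ± 2.02 in senescent and 13.0 ± 0.940 in control livers, and *Mmp15* had 8.38 ± 1.84 in senescent and 7.44 ± 0.391 in control livers (SD, n = 4 each). In CPM, *Mmp19* had 67.2, 85.8, 75.0 and 87.6 in senescent and 68.5, 65.0, 67.9 and 76.8 in control livers, which overlapped. The 95% confidence interval of its log2 fold change was -0.04 to 0.40. *Mmp14* had 77.7, 86.8, 69.6 and 58.5 CPM in senescent livers and 79.7, 73.0, 84.4 and 72.9 CPM in control livers, with an interval of -0.34 to 0.17. *Mmp15* had 46.8, 54.1, 31.0 and 49.1 CPM in senescent and 37.9, 39.8, 43.0 and 39.9 CPM in control livers, so that senescent replicate 3 was below all controls and the other 3 above all of them.

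*Adamts13*, the protease that cleaves von Willebrand factor and is made in liver by stellate cells, was tested only there. It had 11.4, 7.47, 10.9 and 10.3 CPM in senescent and 8.53, 8.39, 8.27 and 9.10 CPM in control livers. Of the senescent libraries 3 were above all controls and 1 below, and the interval of the log2 fold change was -0.11 to 0.56. *Timp2* averaged 20.1 ± 2.41 CPM in senescent and 20.1 ± 3.90 CPM in control livers (SD, n = 4 each), with an interval of -0.31 to 0.31. *Adamts7*, *Adamts10*, *Adamts2*, *Adamtsl2*, *Mmp2* and *Mmp11*, each the member of its role group with the highest level per kilobase in livers, had log2 fold changes of -0.09, -0.06, -0.38, -0.31, -0.10 and 0.13, and their groups overlapped. Of the genes that rose in iMEFs, the 3 on chromosome 9 had few reads here. *Mmp3* had 5 reads in senescent and 0 in control livers, *Mmp13* had 19 reads in senescent and 20 reads in control livers, and *Mmp10* had 0 in both. *Timp1*, abundant in iMEFs, had 13 reads in senescent and 9 reads in control livers. *Mmp12*, macrophage elastase, had 29 reads in senescent and 8 reads in control livers, and *Adamts3* had 0 reads in senescent livers and 11 in control livers with at least 1 read in each control. Both were below the filter and had no test.

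**Figure D4:**
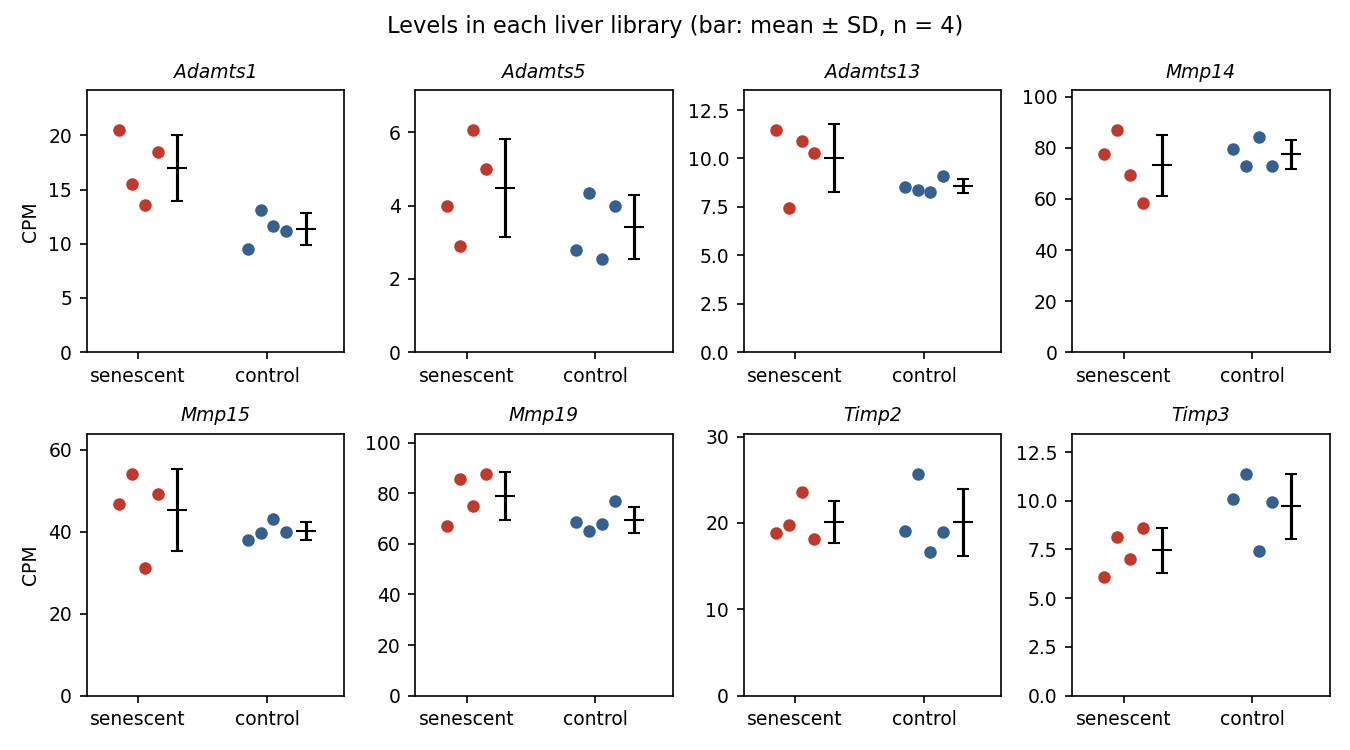
CPM of 8 members in each of the 4 senescent (red) and 4 control (blue) liver libraries, each panel with its own axis from 0. Black marks to the right of each group give its mean ± SD. *Adamts1* is the only panel in which the groups do not overlap.

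None of the lists of matrix proteolysis genes held a called gene in livers. Summed levels of 7 hepatocyte markers were 87616 to 106525 CPM in senescent and 78773 to 90486 CPM in control livers, and none was at 0. Marker sums of other liver cells were 504 to 640 CPM in senescent and 289 to 619 CPM in control livers for 10 macrophage genes. They were 16.8 to 36.0 CPM in senescent and 11.8 to 21.2 CPM in control livers for 9 monocyte and neutrophil genes, and 391 to 462 CPM in senescent and 335 to 427 CPM in control livers for 12 stellate cell and myofibroblast genes. None of these markers was called, and none was at 0. Their part in the values of the members was not tested.

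The difference in fold change between the tissues was tested directly in 1 fit over all 14 libraries. Of 11693 genes tested in both tissues, 17.1% differed, 9.69% with the lower and 7.41% with the higher fold change in iMEFs. Of the 23 members tested in both, 6 differed, all with the lower fold change in iMEFs, and 21 of the 23 differences were below 0. The median difference over all 11693 genes was -0.00093. *Adamts5* had log2 fold changes of -2.20 in iMEFs and 0.39 in livers, and the difference, iMEF minus liver, was -2.59 ± 0.26 (SE, 95% confidence interval -3.13 to -2.05). *Adamts1* differed by -2.41 ± 0.20 (SE), with -1.83 in iMEFs and 0.58 in livers. In livers *Adamts5* had 3.99, 2.91, 6.05 and 4.99 CPM in senescent and 2.79, 4.34, 2.55 and 4.00 CPM in control samples. Both *Adamts* neighbours were thus lower in all senescent iMEF libraries, while in senescent livers the values of *Adamts1* were above the controls and those of *Adamts5* overlapped them. *Adamtsl1* differed by -2.21 ± 0.53 (SE), *Adamts12* by -1.96 ± 0.36 (SE), *Adamts2* by -1.81 ± 0.40 (SE) and *Mmp19* by -1.25 ± 0.15 (SE). Their log2 fold changes in livers were -0.06, 0.22, -0.38 and 0.18, and their liver groups overlapped. *Adamts12* and *Adamtsl1* were scarce there, at 0.799 ± 0.349 and 2.05 ± 0.718 CPM in senescent livers, against 0.688 ± 0.117 and 2.12 ± 0.987 CPM in control livers (SD, n = 4 each). The adjusted p-values of these 6 differences from edgeR's test were at most 0.0087. *Timp3* was not called different between the tissues, with log2 fold changes of -0.43 in iMEFs and -0.38 in livers and a difference of -0.05 (95% confidence interval -0.46 to 0.36). For *Mmp3*, *Mmp10* and *Mmp13*, the difference was not tested with the filter on low counts, for want of liver reads. Without that filter *Mmp13* was called, with the higher fold change in iMEFs (difference 2.35, adjusted p = 0.0215).

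**Figure D5:**
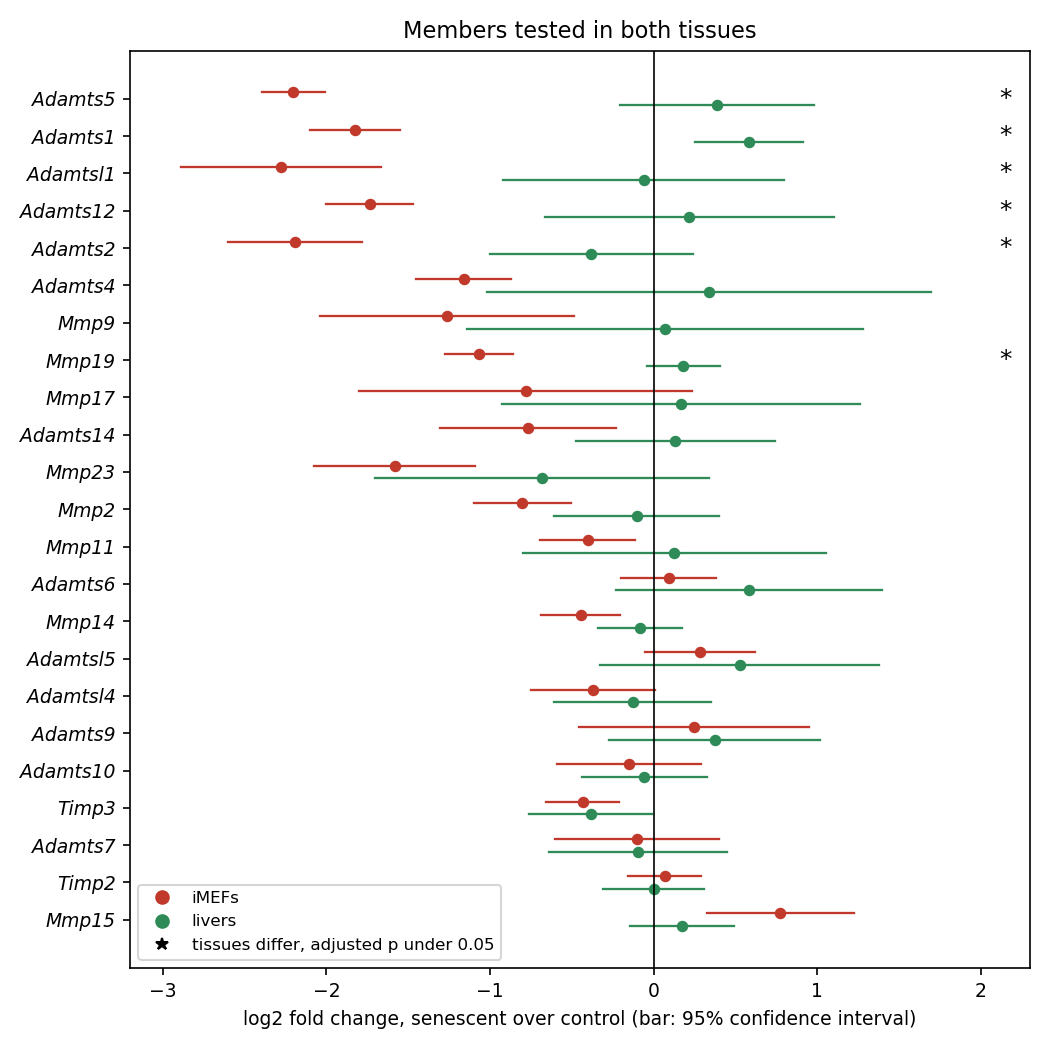
Log2 fold changes, senescent over control, of the 23 members tested in both tissues, in iMEFs (red) and livers (green), with 95% confidence intervals as bars and ordered by the difference. Asterisks mark the 6 members with a different fold change in iMEFs and livers. The red points of these 6 lie between -2.28 and -1.07 and the green points between -0.38 and 0.58.

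The sources used here do not give the strand setting of the counting, and several members share exon bases with a gene on the opposite strand in GENCODE M21: *Timp3*, which lies within *Syn3* (1733 bases), *Mmp19* with *Tmem198b* (789 bases), *Mmp11* with *Chchd10* (155 bases) and *Adamts7* with *Tbc1d2b* (122 bases). Whether reads of these neighbours entered the counts was not tested. *Mmp3* and *Mmp10* have similar sequences, and how reads that fit several genes were counted is not given either.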

How the data were processed

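RNA was sequenced from 6 iMEF and 8 liver libraries. The values used were raw gene counts, whole numbers as deposited by the authors in 1 table per tissue. The submitters' processing notes name STAR, featureCounts, DESeq2 and mm10, while versions, annotation release, strand setting and handling of multi-mapped reads were each not given in the sources used here. Tables of normalized values that the authors made were not used. Count columns were assigned to samples by title, day or deletion and number, and 0 columns of other samples were present. Depth was 15364450 to 20177401 reads in genes per library, which limits precision for members with few reads.

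Genes with low counts were removed with filterByExpr of edgeR 4.0.16 (R 4.3.3), libraries were scaled by TMM, and senescent and control groups were compared within each tissue by edgeR's quasi-likelihood test, two-sided, with Benjamini-Hochberg adjustment over all tested genes. A gene was called at an adjusted p under 0.05. CPM are per 1000000 reads of tested genes after TMM. Fold changes used a prior count of 0.125. The difference between tissues was an interaction in 1 fit over 14 libraries and 11693 genes. Alternatives were DESeq2 1.42.0, limma-voom (limma 3.58.1), RLE factors, no filter on low counts, a replicate block, each library left out in turn and an adjusted p of 0.01. The script was tested on simulated data. Exon lengths and positions came from GENCODE M21 (GRCm38), promoters from RefSeq (GRCm38.p6). Figures were drawn with matplotlib 3.10.9.

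The members and the lists of other genes were chosen with earlier results of these data known. Members were named with values where they were called in either tissue or differed between tissues, where they were *Timp* genes, or where they had the highest level per kilobase of their role group. Of the lists, up to 4 called genes each were named, by smallest p, and any further member or gene was named after its values were seen. Some genes are not reported here.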

Additional observations from a re-analysis of the deposited data

Results flagged for a closer look

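Among 54 groups of 4 liver libraries examined, 1 for each tested member in each condition, 2 held a library whose distance from its neighbour exceeded Dixon's 95% critical share of the whole range, and chance gives about 1 in 20 such groups. *Adamts9*, a versican-cleaving protease, had 4.91 CPM in senescent liver replicate 1 and 3.35 to 3.57 CPM in the other senescent livers. *Adamtsl2*, a fibrillin-binding glycoprotein without protease activity, had 18.6 CPM in control liver replicate 2 and 8.03 to 9.55 CPM in the other control livers.

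The fold change between senescent and control samples differed between the tissues for 6 of 23 members, by the test of the difference itself, edgeR's quasi-likelihood test. The same test called 17.1% of all 11693 genes tested in both tissues. On the log2 scale, iMEF minus liver, the differences were -2.59 for *Adamts5*, -2.41 for *Adamts1*, -2.21 for *Adamtsl1*, -1.96 for *Adamts12*, -1.81 for *Adamts2* and -1.25 for *Mmp19*. In iMEFs all 3 senescent libraries were below all 3 controls for each of the 6, which the test had picked with these same libraries. Among all genes tested in iMEFs, the libraries of the groups did not overlap for 50.6%. The tissues also differ in how *Trf2* was deleted and in the time after it, which cannot be told apart from the tissue.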

How the results depend on the processing

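The count of members with a different fold change in iMEFs and livers was 6, and it became 10 without the filter on low counts. Of the 4 added, *Adamts16* (-3.94) and *Mmp13* (2.35, higher in iMEFs) were tested there only, while *Mmp2* and *Adamts4* had been tested with the filter as well, and the cause was not tested. The count was 6 to 8 under every other setting run. Over all genes, 826 were called with the higher and 1141 with the lower fold change in iMEFs without the filter, of 29881 tested. With the filter these were 867 and 1133 of 11693. In iMEFs the number of members called higher was 4 to 5 and the number called lower 17 to 24 when 1 library was left out. Over all genes, 1624 to 2790 were called higher and 2168 to 3117 lower in the same fits, of 13823 to 13950 tested. Livers held 0 called members under every setting. Whether the replicate numbers pair the samples is not given in the sources used here, and so few libraries cannot decide it. Deviations of same-numbered iMEF libraries correlated at 0.011, -0.070 and -0.189, and those of liver libraries at -0.011, -0.10, -0.045 and 0.276. Between libraries of different numbers the correlations were -0.187 to 0.215 in iMEFs and -0.153 to 0.101 in livers. With the replicate block 4 members were higher and 21 lower in iMEFs, 0 were called in livers and 7 differed between tissues, while the list gene *Spock2* was no longer called in iMEFs (adjusted p = 0.0506). No called member changed sign. Over all alternatives the sign changed at least once for 7 of 35 tested members in iMEFs, 15 of 27 in livers and 6 of 23 differences between tissues, none of them called, and the cause was not tested. When 1 library was left out, log2 fold changes in iMEFs ranged from -0.024 to 0.13 for *Timp2* and from -0.50 to 0.045 for *Adamts10*, where the lower end lacked senescent replicate 3. In livers they ranged from -0.17 to 0.011 for *Mmp14*, -0.084 to 0.14 for *Timp2*, -0.43 to 0.060 for *Adamts7*, -0.63 to 0.048 for *Adamtsl2*, -0.20 to 0.057 for *Adamts10*, -0.22 to 0.12 for *Mmp2*, -0.27 to 0.23 for *Adamtsl1*, -0.43 to 0.35 for *Mmp11* and -0.10 to 0.41 for *Adamts12*. The difference between tissues for *Timp3* ranged from -0.17 to 0.059. *Timp2* in livers was -0.0024 with DESeq2, -0.0024 with RLE factors and -0.0018 without the filter, and *Mmp11* in livers was -0.069 with limma-voom and -0.020 with the replicate block. *Adamts14*, *Mmp11*, *Mmp16* and *Mmp9* lost their calls in iMEFs when single libraries were left out, and members below the filter on low counts had no test at this depth.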
